A study of Homo sapiens with 8 samples.

Results

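The 10 genes described here are members of the Notch signalling pathway: the receptors NOTCH1, NOTCH2 and NOTCH3, the ligands JAG1, JAG2 and DLL1, the Fringe enzymes LFNG and MFNG, and the targets HES1 and HEY1. They were chosen by name, out of 33791 genes with summed counts, and each of the 10 was measured in RNA-seq of PNT2, an immortalised human prostate epithelial cell line grown in DMEM with serum. The 8 libraries, 2 to a group and lettered A and B, make up 4 groups: the parental line (WT), a line with the label ERF KD, another with the label CIC KO, and a CIC-ERF codeletion line. In the study's methods ERF was silenced with short hairpin RNAs under puromycin, CIC was disrupted with Cas9 and guide RNAs under blasticidin, and the codeletion combined an ERF hairpin with a CIC guide in the same cells, so that it models the loss of 2 adjacent genes without a chromosomal deletion. Which hairpin or guide each letter stands for, and whether WT cells carried a control construct, is not given in the sources used here. ERF and CIC are transcriptional repressors, and the comparisons ask what is altered when either or both are lost.

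ERF mRNA went against the labels of the groups with a single loss. It stood at 55.8 and 55.9 CPM (counts per 1000000 counts of the library, scaled by the TMM method) in WT libraries A and B, at 81.2 and 77.8 CPM in the libraries labelled ERF KD, at 18.8 and 11.7 CPM in those labelled CIC KO and at 11.6 and 10.4 CPM in the codeletion. CIC mRNA, which a Cas9 edit need not lower, stood at 129 ± 0.756 CPM (SD, n = 2) in WT, 109 ± 0.303 CPM in labelled ERF KD, 132 ± 0.434 CPM in labelled CIC KO and 78.6 ± 17.4 CPM in the codeletion. The deposited files of these 4 libraries are also named with the opposite letter to their sample labels, C for the samples labelled E and E for those labelled C. ETV1, ETV4 and ETV5, known targets of repression by CIC, were higher in labelled ERF KD than in WT by 2.38, 1.51 and 1.95 on the log2 scale (edgeR adjusted p = 0.000300, 0.00369 and 0.000717). In labelled CIC KO they differed from WT by 0.0086, 0.22 and 0.41, none called. In the codeletion they differed from WT by 0.86, 1.61 and 1.29, none called. With the library letter as a block in the fit, ETV4 and ETV5 were called there. The study also reports ETV1 as a target of ERF: by PCR, silencing ERF raised ETV1 but not ETV4 or ETV5. Whether both single-loss groups carry each other's label could not be settled from these sources. The labels are kept below, every direction drawn from "labelled ERF KD" or "labelled CIC KO" rests on them, and an exchange would reassign each such value to the other loss. The deposited totals ran from 19477473 to 25813157 estimated counts per library.

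Notch receptors are cut after they bind a Delta-like or Jagged ligand on a neighbouring cell. The released intracellular part enters the nucleus, joins the DNA-binding protein RBPJ and a Mastermind coactivator, and switches on HES and HEY genes, which encode repressors. Fringe enzymes add a sugar to the receptors and so alter how well each kind of ligand activates them. In stratified and glandular epithelia, the prostate included, the pathway is known for its part in the balance between basal and luminal cells.

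The promoter of HES1 shows the kind of element through which the pathway acts, and is printed because HES1 is the member most often read as its output. RefSeq promoter windows (250 bases before to 50 bases after a gene's start, GRCh38.p14) matched 7 of the 10 members, and 5 of these windows covered the start of the transcript that carried most of the member's counts in WT. Of those 5, HES1 had a GTGGGAA word, the form bound by RBPJ, beginning 82 bases before the start of transcript HES1-201. The 247 bases before that start lie at chr3:194135898-194136144 on the plus strand. Capitals mark the RBPJ word and 3 words of the form CACNAG, the N-box bound by HES proteins, each searched on both strands.
HES1 promoter: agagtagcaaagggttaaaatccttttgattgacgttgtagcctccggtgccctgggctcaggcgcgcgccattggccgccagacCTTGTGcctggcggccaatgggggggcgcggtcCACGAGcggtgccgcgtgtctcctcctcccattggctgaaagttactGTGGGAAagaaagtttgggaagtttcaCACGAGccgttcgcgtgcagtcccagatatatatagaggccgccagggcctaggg
Among 35116 promoter windows of the same length in the table, 6.25% held the RBPJ word and 38.0% held an N-box word on either strand. GGAA, the core of sites bound by ETS proteins such as ERF, was in each of the 5 windows and in 95.5% of all, and the GGAA of the RBPJ word is one such match. These matches describe the letters in the windows and were not tested for binding.

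Levels between genes were compared as TPM, which corrects for transcript length. In WT the order of the 10 means was JAG2, NOTCH2, HES1, LFNG, JAG1, NOTCH1, NOTCH3, MFNG, DLL1 and HEY1. JAG2 led at 77.7 ± 8.85 TPM (SD, n = 2), ahead of NOTCH2 at 44.0 ± 7.86 TPM and HES1 at 26.4 ± 8.38 TPM. These TPM are sums over all transcripts of a gene, and that of JAG2 includes a retained-intron form, JAG2-203, at 21.6 and 19.7 TPM in WT. Its long coding forms were lower, JAG2-201 at 12.9 and 13.5 TPM and JAG2-202 at 14.9 and 12.8 TPM. The coding form NOTCH2-201 stood at 44.8 and 35.4 TPM. LFNG at 11.8 TPM, JAG1 at 11.4 TPM and NOTCH1 at 10.4 TPM overlapped library by library, and their order is not resolved. NOTCH3 at 5.50 ± 0.373 TPM and MFNG at 4.06 ± 1.31 TPM came next. Of the MFNG sum, the long coding forms MFNG-201 and MFNG-202 held 0.599 and 0.746 TPM, and 0.287 and 0 TPM. Other forms held the rest, such as the retained-intron form MFNG-209 at 1.74 and 1.11 TPM. DLL1 at 0.599 ± 0.0434 TPM and HEY1 at 0.374 ± 0.189 TPM had the lowest sums, each below 1 TPM in every WT library.

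In summed TPM the same 3 genes led in all 4 groups, but the top of the order differed in labelled ERF KD. There NOTCH2, at 40.7 and 42.3 TPM, and JAG2, at 47.9 and 30.5 TPM, overlapped. In each of the other groups the sum for JAG2 stood above NOTCH2 in both libraries. On coding forms the order was the reverse, since JAG2-201 and JAG2-202 together lay below NOTCH2-201 in every library. At the foot of the order DLL1 and HEY1 overlapped in labelled ERF KD, labelled CIC KO and the codeletion.

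**Figure D1:**
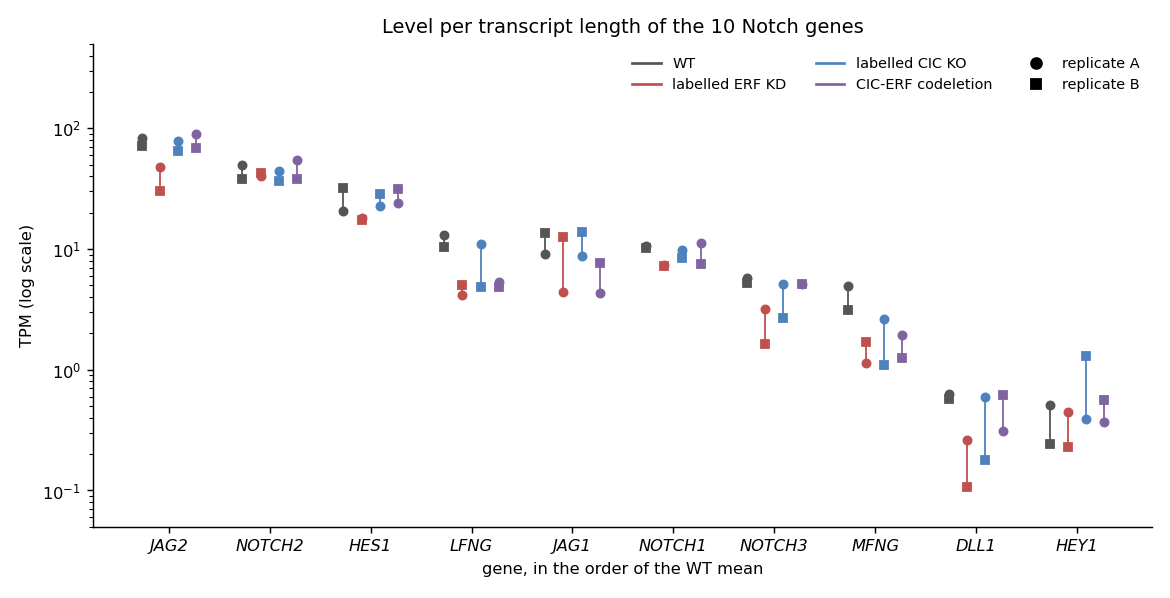
TPM on a log axis of the 10 Notch genes, ordered by their mean in WT, with replicate A as a circle, replicate B as a square and a line joining both libraries of a group. JAG2 is the highest gene in WT, labelled CIC KO and the codeletion, and falls to the level of NOTCH2 in labelled ERF KD.

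Differences between groups were taken from 1 edgeR fit of all 8 libraries, with p-values adjusted over the 14653 genes tested and a call at an adjusted p under 0.05. All 10 members entered that test, HEY1 only through labelled CIC KO A and codeletion B, the 2 libraries at or above the cutoff of 0.485 CPM on unscaled totals. In labelled ERF KD against WT, JAG2 and LFNG were called, both lower, so 2 of 10 members against 10.1% of all genes tested. With the library letter as a block in the fit, the same 2 were called, beside 18.2% of all genes. The median difference of the 10 members was -0.69 on the log2 scale, beside 0.0058 over all genes tested. Both labelled ERF KD libraries lay below both WT libraries for 7 of the 10 members, where 28% of all genes did so. In labelled CIC KO against WT no member was called (0% of all genes were, with 587 genes and no member at an unadjusted p under 0.05 in edgeR), and the members' median was -0.049. With the block it was again no member, beside 0.00682% of all genes. In the codeletion against WT no member was called either (0.0682% of all genes were), LFNG alone had an unadjusted p under 0.05 in edgeR, and the median was 0.020. With the block no member was called either, beside 2.49% of all genes.

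Against labelled ERF KD, the codeletion had 1 member called, JAG2, higher, where 11.7% of all genes were called. With the block 3 members were called, JAG2, NOTCH3 and HES1, each higher, beside 20.6% of all genes. This comparison shares the labelled ERF KD libraries with the comparison against WT, so the 2 sets of values are not independent. The codeletion against labelled CIC KO gave no call (0% of all genes; 1216 genes and no member at an unadjusted p under 0.05 in edgeR), nor did it with the block, beside 0.334% of all genes. Labelled ERF KD against labelled CIC KO gave 1, JAG2, lower, with or without the block, beside 9.4% of all genes without it and 16.5% with it. The interaction term, which asks whether the codeletion departs from the sum of the other 2 groups' differences from WT, is the same whichever of them is called ERF KD. It called no member, beside 4.15% of all genes, and with the block it called JAG2 alone, beside 9.55%.

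**Figure D2:**
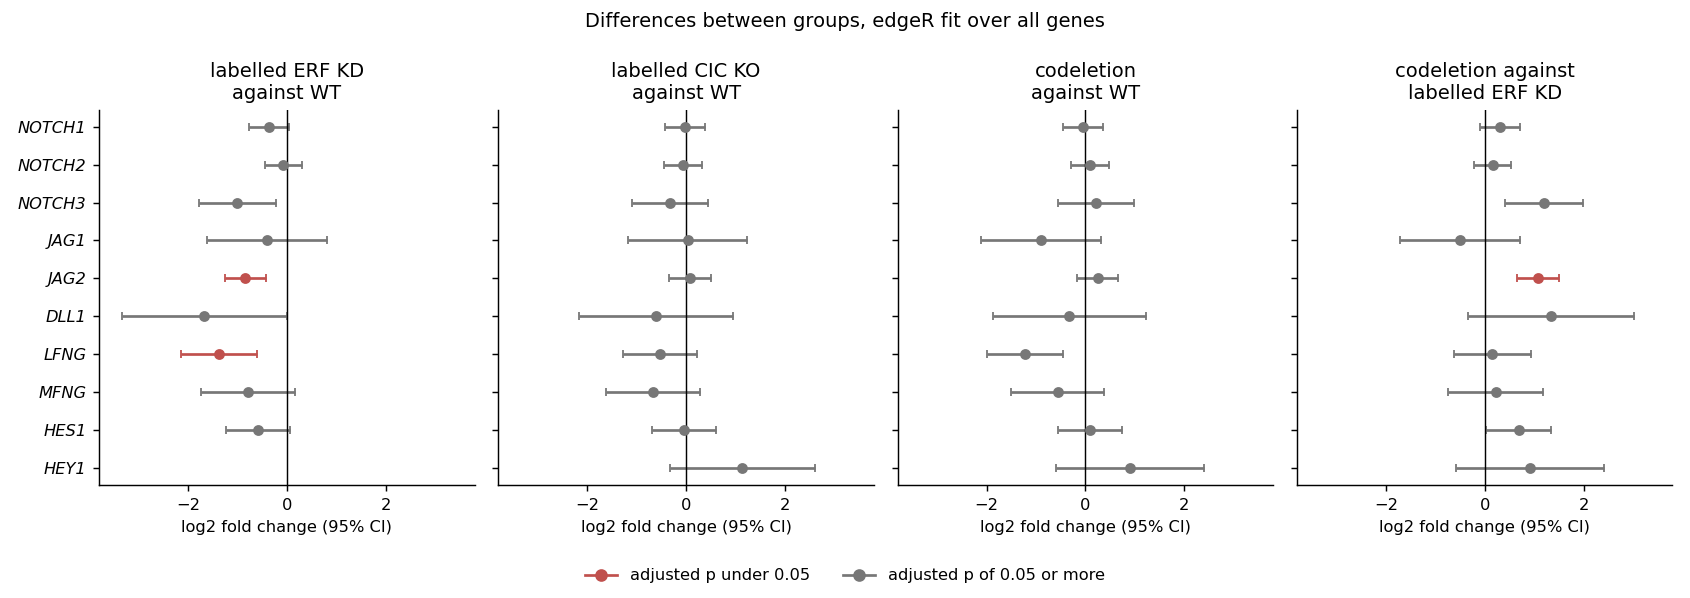
Log2 fold changes of the 10 genes with 95% confidence intervals in 4 comparisons from the edgeR fit, red where the adjusted p was under 0.05. HEY1 has no point in the comparison of labelled ERF KD with WT because its counts were 4 and 5 in both groups, and JAG2 is called in the first and the last panel with opposite signs.

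NOTCH2 was the most abundant of the receptors, and its levels overlapped in all 4 groups. They were 343 and 297 CPM in WT, 287 and 323 in labelled ERF KD, 311 and 301 in labelled CIC KO, and 388 and 295 in the codeletion. The log2 difference of labelled ERF KD from WT was -0.07 with a 95% interval from -0.45 to 0.31. Part of NOTCH2 is copied in NOTCH2NLA, listed at 18.1 and 25.9 CPM in WT, and reads of the shared part could have been divided between them. All but a small share of NOTCH2 counts was assigned to the full-length transcript NOTCH2-201, and the same held for NOTCH1 with NOTCH1-201.

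NOTCH1 stood at 63.5 and 63.1 CPM in WT and at 48.5 and 50.2 CPM in labelled ERF KD. Both labelled ERF KD libraries were below WT, and the log2 difference of -0.36 (SE 0.179, edgeR adjusted p = 0.261) did not pass the test. Labelled CIC KO, at 67.5 and 56.9 CPM, and the codeletion, at 71.6 and 50.3 CPM, spanned the WT values.

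NOTCH3, a receptor best known from vascular smooth muscle and also expressed in epithelia, stood at 19.0 and 23.2 CPM in WT, 14.5 and 6.66 in labelled ERF KD, 19.3 and 14.2 in labelled CIC KO, and 22.0 and 26.8 in the codeletion. The lowest library of the 8 was labelled ERF KD B, and the codeletion libraries both lay above both labelled ERF KD libraries. Against WT the log2 difference in labelled ERF KD was -1.0 (SE 0.342, edgeR adjusted p = 0.111). It passed with DESeq2 (adjusted p = 0.0388), without a filter on low counts (adjusted p = 0.000858 in edgeR) without labelled ERF KD A, and with the block and no filter together. The codeletion exceeded labelled ERF KD by 1.20 (SE 0.343, edgeR adjusted p = 0.0587), and with the letter as a block by 1.25 (adjusted p = 0.0268). Its interaction term of 1.54 (SE 0.480, edgeR adjusted p = 0.140) did not pass the test.

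**Figure D3:**
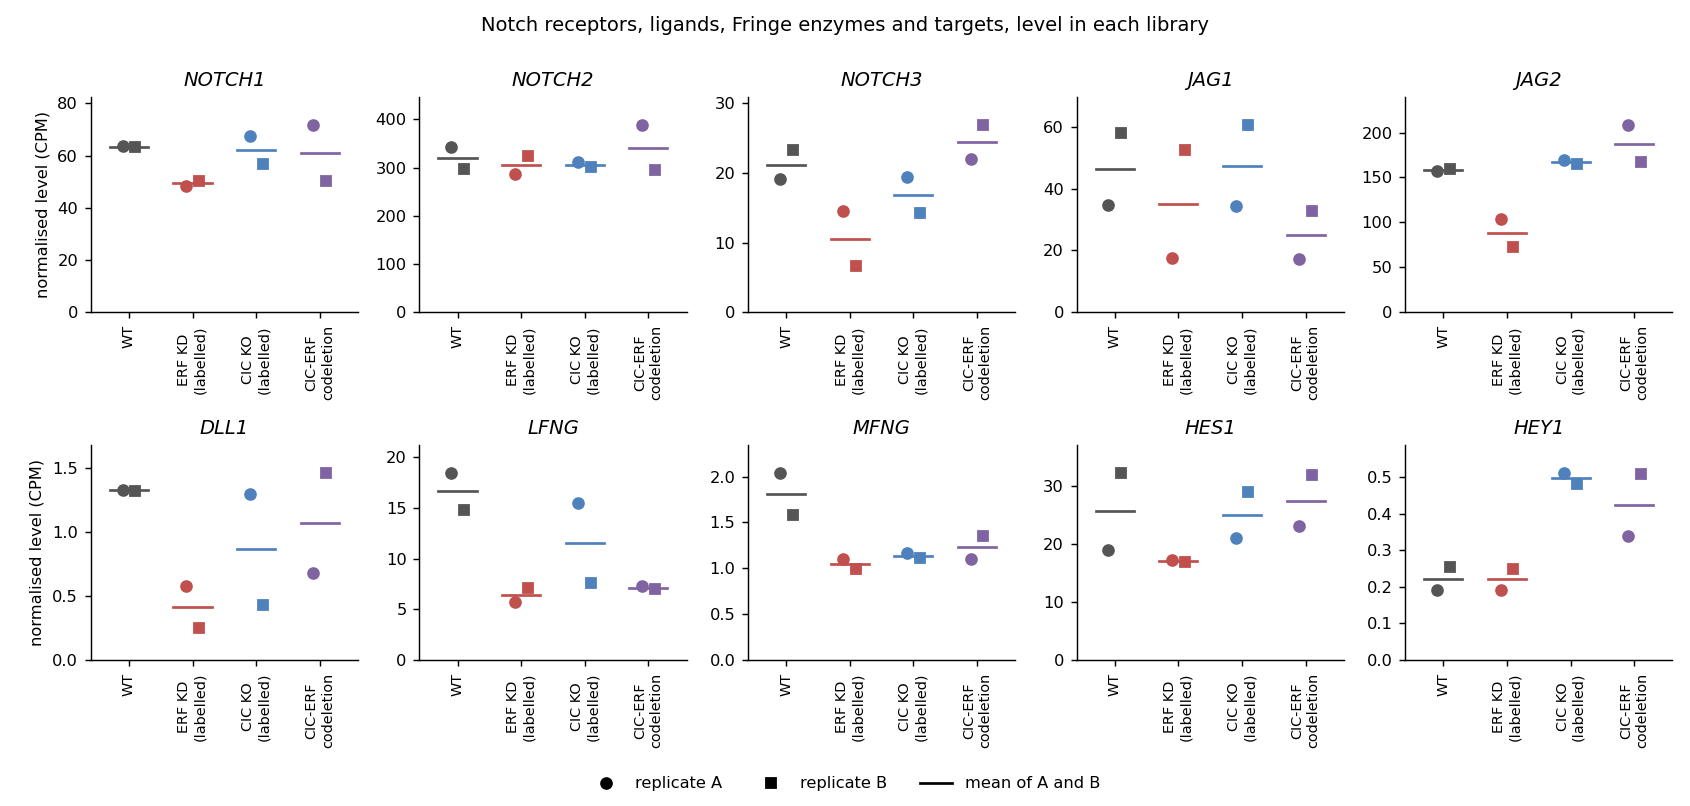
CPM of each of the 10 genes in each library, with replicate A as a circle, replicate B as a square and the mean of both as a line, each panel on its own linear axis from 0. JAG2 is lowest in labelled ERF KD, LFNG is highest in WT, and JAG1 is higher in replicate B than in A within every group.

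JAG2, a Jagged ligand and the most abundant ligand here, lies on chromosome 14 at 105140981 to 105168824 (GRCh38, minus strand). Its levels were 157 and 159 CPM in WT, 104 and 73.3 in labelled ERF KD, 170 and 165 in labelled CIC KO, and 208 and 167 in the codeletion. The labelled ERF KD libraries were the lowest 2 of the 8, and no other group overlapped them. JAG2 fell by 0.84 on the log2 scale in labelled ERF KD against WT (SE 0.184, edgeR adjusted p = 0.0252). With the letter as a block the difference was -0.86 (edgeR adjusted p = 0.00434). The call was lost without WT A, WT B or labelled ERF KD B (adjusted p from 0.109 to 0.116) and held in the other 13 of 16 alternatives. JAG2 was higher in the codeletion than in labelled ERF KD by 1.08 (SE 0.185, edgeR adjusted p = 0.00782), a call lost only without codeletion A (adjusted p = 0.0600) among the 16 alternatives run. Against WT itself the codeletion differed by 0.25, with a 95% interval from -0.17 to 0.66.

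In labelled ERF KD against labelled CIC KO, JAG2 was lower by 0.92 (log2 difference -0.92, SE 0.184, edgeR adjusted p = 0.0178). That call was lost in 7 of 16 alternatives, with adjusted p from 0.0512 to 0.0790: on length-scaled counts, in both limma fits on TPM, with only the groups compared, and without labelled ERF KD B, labelled CIC KO A or labelled CIC KO B. The interaction term was 1.0 (SE 0.259, edgeR adjusted p = 0.0806), and with the block 1.01 (adjusted p = 0.0160).

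The counts of JAG2 were divided among 3 transcripts in every library. JAG2-201 held 33.3% to 51.9% of them, JAG2-202 held 25.8% to 39.5%, and the form annotated as a retained intron, JAG2-203, held 16.1% to 20.4%. JAG2-201 took its highest share in labelled ERF KD B. Its mean share was 35.6% in WT, 48.4% in labelled ERF KD, 42.7% in labelled CIC KO and 43.2% in the codeletion. Differences in these shares were not tested. Exons of JAG2 share 469 bases with AL512356.1, a gene on the same strand, and reads there could belong to either.

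Epithelial markers were low in labelled ERF KD, where JAG2 was also lowest. Within groups they differed from JAG2: the epithelial sum was higher in replicate B in every group, and JAG2 in 1 of 4. The summed level of 8 epithelial markers was 3794 and 4634 CPM in WT, 1645 and 2107 in labelled ERF KD, 4050 and 5210 in labelled CIC KO, and 3932 and 5036 in the codeletion. Of the 7 tested, 6 were called lower in labelled ERF KD against WT, where 10.1% of all genes were called. KRT8 was also lower but not called (log2 difference -0.88, edgeR adjusted p = 0.0543). CDH1, the epithelial cadherin, went from 362 and 385 CPM to 17.6 in both libraries. TP63, the basal cell marker, was too low to test. It had 3 and 2 counts in WT, none in labelled ERF KD, 0 and 12 in labelled CIC KO and 1 and 3 in the codeletion. The 8 fibroblast and mesenchymal markers summed to 154 and 242 CPM in WT, 1612 and 1995 in labelled ERF KD, 177 and 236 in labelled CIC KO, and 97.7 and 152 in the codeletion. VIM, the intermediate filament vimentin, made up 1497 and 1953 CPM of the sum in labelled ERF KD, and the other 7 markers summed to 49.2 and 31.4 CPM in WT and to 115 and 42.3 CPM in labelled ERF KD. Of the 6 tested, VIM and COL3A1 were called higher in labelled ERF KD against WT, and the others had positive estimates that were not called. DCN was too low to test and LUM was at 0 in every library. No endothelial marker (of 5 tested) and no leukocyte marker (of 3 tested) was called by edgeR without the block. With the block CDH5, an endothelial cadherin, was called in 3 comparisons and CD68, a macrophage marker, in 4, all but 1 of these 7 involving the codeletion. CDH5 was highest in the codeletion, at 65.4 and 15.0 CPM against 10.3 and 5.15 CPM in WT, and CD68 was lowest there, at 5.54 and 21.8 CPM against 14.0 and 42.7 CPM. The part of these markers in the differences of JAG2, LFNG and NOTCH3 was not tested. In bulk RNA, fewer cells of a type and less RNA per cell cannot be told apart.

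JAG1, the other Jagged ligand, differed by library letter. It stood at 34.8 and 58.0 CPM in WT, 17.7 and 52.5 in labelled ERF KD, 34.3 and 60.4 in labelled CIC KO, and 17.2 and 32.6 in the codeletion. Replicate B was above replicate A in 4 of 4 groups, by 1.67 to 2.96 times. The codeletion was the lowest group within each letter. Its log2 difference from WT was -0.90 (SE 0.532, edgeR adjusted p = 0.501), and with the letter as a block the adjusted p was 0.0506. It was past the threshold in 2 of 16 alternatives, both without a filter on low counts. The difference of the codeletion from labelled CIC KO was similar in size at -0.93. Labelled ERF KD differed from WT by -0.40 (SE 0.526), with a 95% interval from -1.61 to 0.81. Over the 8 libraries the protein-coding genes whose log2 CPM followed JAG1 most closely were SERPINB7 (Pearson r = 0.975), MYO10 (r = 0.969) and HYI (r = 0.962), out of 12606 genes, given as a description in which all libraries share the letter difference.

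DLL1, a Delta-like ligand, was near the limit of detection. Its counts were 28 and 26 in WT, 12 and 5 in labelled ERF KD, 28 and 9 in labelled CIC KO, and 16 and 26 in the codeletion. The labelled ERF KD libraries lay below both WT libraries, with a log2 difference of -1.67 (SE 0.725, edgeR adjusted p = 0.200). The codeletion stood above labelled ERF KD by 1.35, which did not pass the test, and its 2 libraries ran from 0.677 to 1.47 CPM.

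LFNG, which encodes lunatic fringe, lies on chromosome 7 at 2512529 to 2529177 (GRCh38, plus strand). It was highest in WT, at 18.5 and 14.8 CPM, against 5.72 and 7.10 in labelled ERF KD, 15.5 and 7.60 in labelled CIC KO, and 7.28 and 6.99 in the codeletion. Labelled CIC KO A overlapped WT, and the other 5 altered libraries lay below 8 CPM. LFNG fell by 1.38 on the log2 scale in labelled ERF KD against WT (SE 0.335, edgeR adjusted p = 0.0376). With the letter as a block the difference was -1.35 (edgeR adjusted p = 0.0164). The call was lost on length-scaled counts and in both limma fits on TPM (adjusted p from 0.0844 to 0.0849). It was also lost without any 1 of WT A, WT B, labelled ERF KD A, labelled ERF KD B, codeletion A and codeletion B (adjusted p from 0.0631 to 0.190). In the codeletion LFNG differed from WT by -1.22 (SE 0.333, edgeR adjusted p = 0.195), past the threshold in 3 of 16 alternatives: DESeq2, and the fits without a filter on low counts with and without the block. Labelled CIC KO differed from WT by -0.52, the codeletion from labelled CIC KO by -0.70 and labelled ERF KD from labelled CIC KO by -0.85, and none of these passed the edgeR test.

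Library to library, the LFNG counts were assigned to different transcripts. LFNG-202 held 0.106% of them in WT A and 41.3% in WT B, and 14.0% and 53.4% in labelled ERF KD. The rest went mainly to LFNG-201, with 92.4% in WT A and 42.8% in labelled ERF KD B. TPM and length-scaled values of LFNG depend on that division, while its summed counts do not.

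MFNG, or manic fringe, stood at 2.04 and 1.58 CPM in WT, and every altered library lay lower. The values were 1.10 and 0.993 CPM in labelled ERF KD, 1.16 and 1.11 in labelled CIC KO, and 1.10 and 1.35 in the codeletion. The log2 differences from WT were -0.79 (SE 0.416, edgeR adjusted p = 0.293), -0.67 and -0.56 in that order, none past the threshold in any of the 16 alternatives. The assignment to transcripts moved between extremes, with MFNG-201 at 95.7% in labelled ERF KD A and 0% in labelled ERF KD B, on 20 to 43 counts per library.

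**Figure D4:**
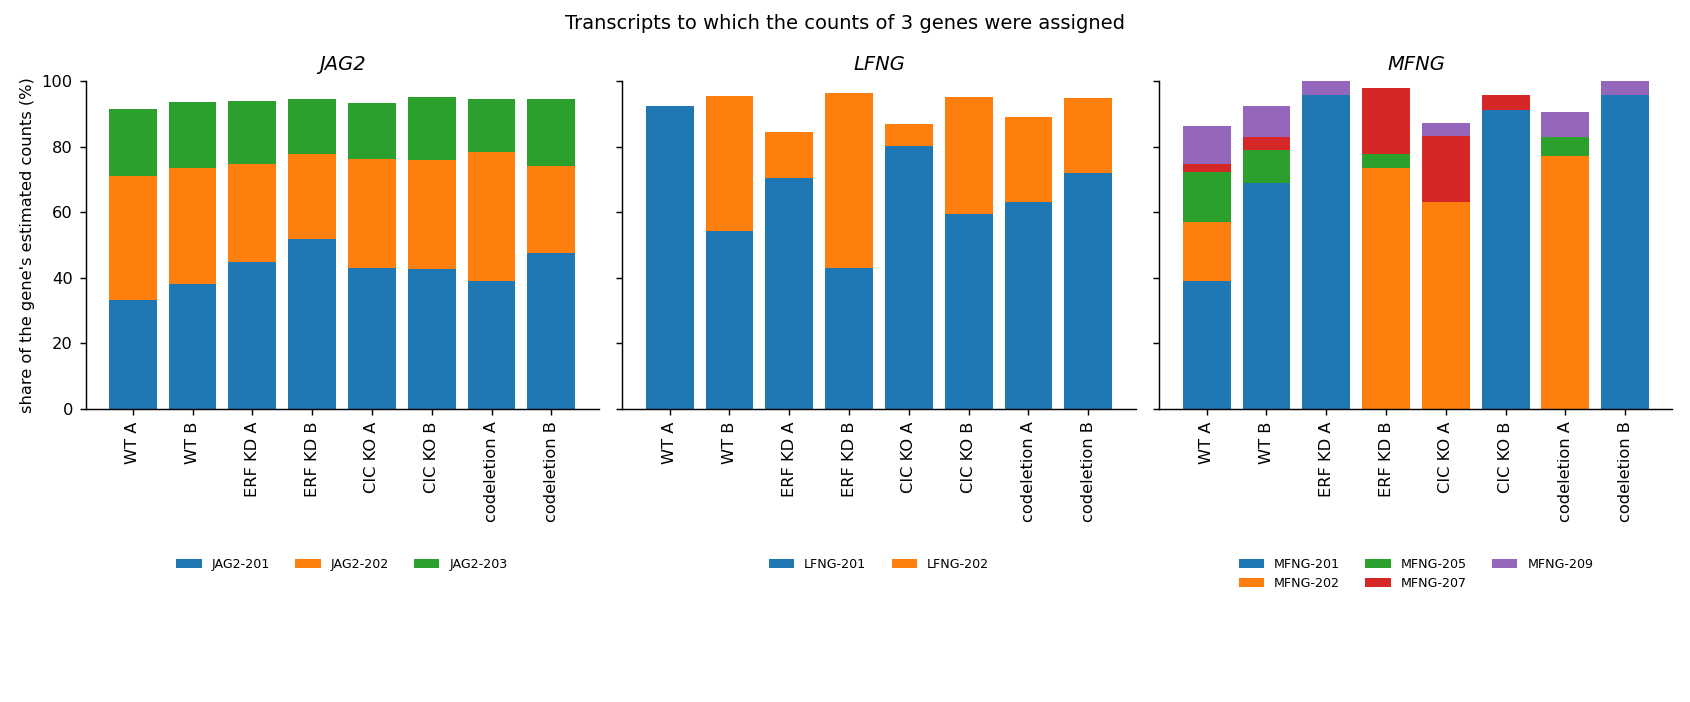
Share of each gene's estimated counts, in percent, assigned to each transcript that held at least 10% of the gene's counts in any group, for JAG2, LFNG and MFNG in each library; the space above a bar belongs to transcripts not shown. JAG2-201 ranges from 33.3% to 51.9% of the counts of JAG2, LFNG-202 from 0.106% to 53.4% and MFNG-201 from 0% to 95.8%.

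HES1, the classical target and a repressor that also acts on its own promoter, stood at 19.0 and 32.3 CPM in WT, 17.2 and 16.9 in labelled ERF KD, 21.0 and 29.1 in labelled CIC KO, and 23.1 and 31.9 in the codeletion. Both labelled ERF KD libraries lay below all others, by a small margin against WT A. The log2 difference from WT was -0.59 (SE 0.285, edgeR adjusted p = 0.250). The codeletion exceeded labelled ERF KD by 0.69 (SE 0.285, edgeR adjusted p = 0.170), and by 0.66 with the letter as a block (adjusted p = 0.0407).

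HEY1, another target, is the only member on the study's own list of target genes shared by CIC and ERF, and was barely detected. That list joined CIC binding in PNT2 with public ERF binding data from VCaP prostate cancer cells. The study reports that it could not pull down ERF in PNT2 for that purpose. HEY1 had 4 and 5 counts in WT, 4 and 5 in labelled ERF KD, 11 and 10 in labelled CIC KO, and 8 and 9 in the codeletion. The labelled CIC KO and codeletion libraries lay above the rest. HEY1 was tested only because labelled CIC KO A and codeletion B reached the count filter, so the folds of these groups are not independent of that filter. The log2 difference from WT was 1.14 (SE 0.642, edgeR adjusted p = 1.0) in labelled CIC KO and 0.90 (SE 0.653, edgeR adjusted p = 0.582) in the codeletion, and at this depth neither could be told from 0. No fold is given for labelled ERF KD, where HEY1 was near the limit of 3 counts in both groups. The closest patterns over the 8 libraries, out of 12607 protein-coding genes, were those of FBXO36 (Pearson r = 0.986), PAM (r = 0.938) and SH3TC2 (r = 0.924), as a description that rests on 4 to 11 counts of HEY1.

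A list of 38 other genes of the pathway was set beside the members, and 34 of them had enough counts to be tested. NOTCH4, HES5, HEY2 and DTX1 did not. In labelled ERF KD against WT, 5 of the 34 were called, 2 higher and 3 lower, which is 14.7% where 10.1% of all genes were called, and their median was -0.00017. No gene of the list was called in labelled CIC KO against WT, in the codeletion against WT, or in the codeletion against labelled CIC KO, with 2, 6 and 3 genes at an unadjusted p under 0.05 in edgeR. In the codeletion against WT, DESeq2 called 1, beside 3.03% of all genes.

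DTX4, a Deltex ubiquitin ligase of Notch trafficking, had the largest difference among the called genes of the list. It stood at 45.5 and 37.4 CPM in WT, 8.21 and 5.07 in labelled ERF KD, 36.8 and 25.3 in labelled CIC KO, and 36.9 and 32.1 in the codeletion. The labelled ERF KD libraries stood far below the other 6, among which both WT libraries lay above the labelled CIC KO and codeletion libraries, the latter overlapping each other. DTX4 fell by 2.64 on the log2 scale in labelled ERF KD against WT (SE 0.278, edgeR adjusted p = 0.000842), and rose by 2.38 in the codeletion against labelled ERF KD (SE 0.277, edgeR adjusted p = 0.00134). Both calls held in 16 of 16 alternatives. It was also lower in labelled ERF KD than in labelled CIC KO, by 2.22 (log2 difference -2.22, edgeR adjusted p = 0.00192).

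FBXW7, which marks the released Notch fragment for degradation, stood at 31.4 and 32.5 CPM in WT, 18.8 and 18.5 in labelled ERF KD, 29.6 and 29.4 in labelled CIC KO and 27.2 and 25.6 in the codeletion. It fell by 0.78 in labelled ERF KD against WT (SE 0.134, edgeR adjusted p = 0.00879), and the call held in 11 of 16 alternatives. It was lost on length-scaled counts, in both limma fits on TPM and without WT A or WT B, with adjusted p from 0.0638 to 0.142.

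NRARP, a target that feeds back on Notch, stood at 5.13 and 4.38 CPM in WT and 2.07 and 2.28 in labelled ERF KD, a log2 difference of -1.13 (edgeR adjusted p = 0.0399). Among the targets HEYL went the other way, from 0.665 and 0.408 CPM to 2.11 and 1.89, a difference of 1.88 (edgeR adjusted p = 0.0456). HEYL stood at 2.42 and 1.49 CPM in labelled CIC KO and at 2.41 and 1.75 CPM in the codeletion, where the difference from WT was not called. All 6 altered libraries lay above WT, and the altered groups overlapped. APH1B, a subunit of the gamma-secretase complex that cuts Notch, rose from 9.55 and 7.34 CPM to 27.0 and 15.1, a difference of 1.32 (edgeR adjusted p = 0.0376). These 3 calls were less stable, holding in 6 (NRARP), 6 (HEYL) and 7 (APH1B) of 16 alternatives. Each was lost without WT A, WT B, labelled ERF KD A, codeletion A or codeletion B, and those of NRARP and HEYL also without labelled ERF KD B (adjusted p up to 0.285 for HEYL, 0.231 for NRARP and 0.199 for APH1B over the alternatives).

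In the codeletion against labelled ERF KD, 4 of the 34 were called (11.8%, beside 11.7% of all genes). DTX4, FBXW7 (0.50, edgeR adjusted p = 0.0468) and MAML1, a Mastermind coactivator (0.75, edgeR adjusted p = 0.0354), were higher, and POFUT1, which fucosylates Notch so that Fringe enzymes can act, was lower (-0.60, edgeR adjusted p = 0.0485). With the block 9 were called, 6 higher and 3 lower (26.5%, beside 20.6% of all genes). Only DTX4 held when single libraries were left out: FBXW7 was lost without any 1 of the 8, POFUT1 without any 1 of the 6 libraries of WT, labelled ERF KD and the codeletion, and MAML1 without any of those but codeletion B. In labelled ERF KD against labelled CIC KO, 3 were called, each lower: DTX4, FBXW7 (-0.66, edgeR adjusted p = 0.0182) and NRARP (-1.56, edgeR adjusted p = 0.0106). That is 8.82%, beside 9.4% of all genes, and with the block 8 were called, 4 higher and 4 lower (23.5%, beside 16.5%).

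By role, in labelled ERF KD against WT, 1 of 9 cleavage genes, 2 of 10 genes of trafficking and turnover and 2 of 4 tested targets were called. None of 2 ligands, 3 glycosyltransferases and 6 genes of the nuclear complex was. These counts are small and stand beside 10.1% of all genes called. The 2 called targets, NRARP and HEYL, went in opposite directions. The most abundant gene of each role in WT did not pass the test. RBPJ, the DNA-binding partner of Notch, stood at 90.9 and 96.5 CPM in WT and at 113 and 108 CPM in labelled ERF KD (log2 difference 0.24, edgeR adjusted p = 0.443). ADAM10, which makes the first cut in the ligand-bound receptor, stood at 271 and 266 CPM in WT and at 222 and 192 CPM in labelled ERF KD (-0.37, edgeR adjusted p = 0.108, with the block -0.38 and 0.0376). HES4, at 36.0 and 32.6 CPM in WT, was at 22.5 and 13.2 CPM (-0.94, edgeR adjusted p = 0.0532, with the block -0.98 and 0.00552). ITCH (-0.22), POFUT1 (0.33) and DLL4 (-1.73) had adjusted p-values of 0.338, 0.258 and 0.185 in edgeR.

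**Figure D5:**
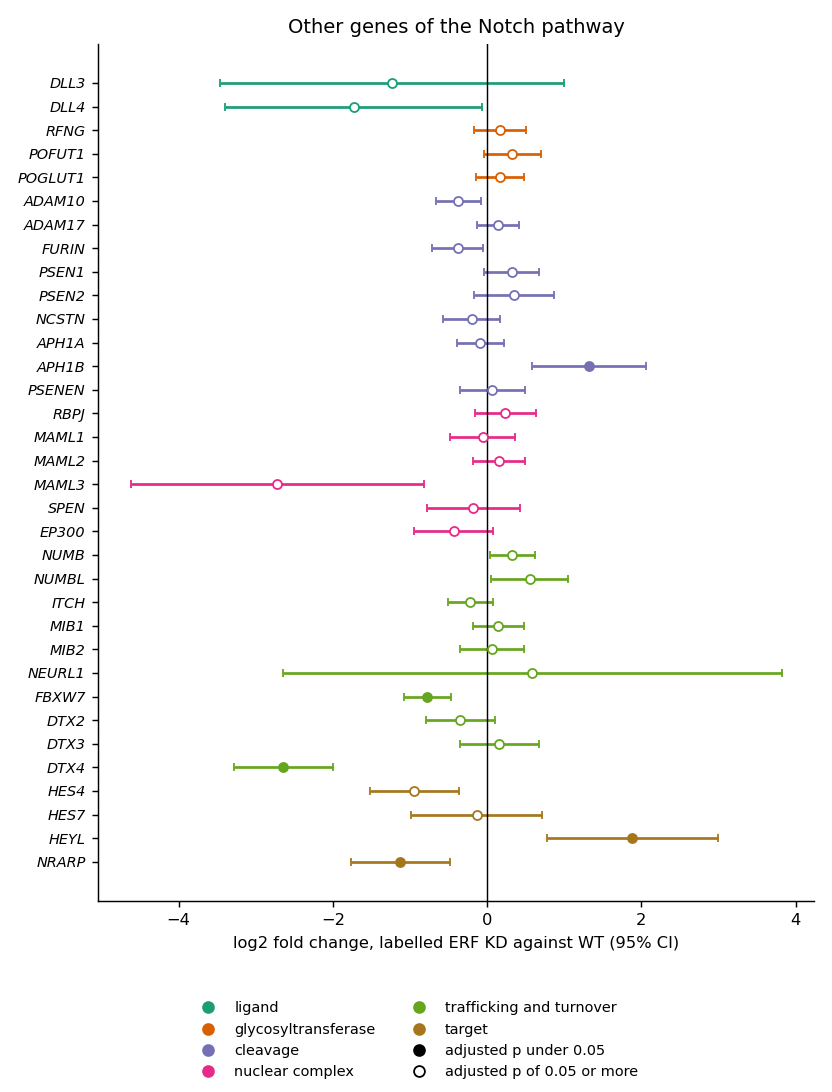
Log2 fold change of the 34 other Notch pathway genes tested in labelled ERF KD against WT, with 95% confidence intervals from the edgeR fit, coloured by role and filled where the adjusted p was under 0.05. DTX4, at -2.64, is the farthest below 0 of the 5 called genes, and APH1B and HEYL are the called genes above 0.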

How the data were processed

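RNA from PNT2 cells was sequenced in 8 libraries (4 groups of 2, by the sample titles), with preparation and sequencing by a company. The deposited values are kallisto estimated counts and TPM for 180253 transcripts per library. The submitters' processing notes name hg19, and the study's methods name RSEM. The kallisto version, annotation and strandedness are not given in the sources used here. Transcripts were joined by identifier to GENCODE release 29 (GRCh38), which held 153245 of them (85.0%), summed to 33791 genes, and the summed expected counts were rounded. The main test was edgeR 4.0.16 (R 4.3.3): filterByExpr, TMM scaling, 1 quasi-likelihood fit of 4 groups without a block, after which SEs were taken as the log2 difference over the root of F. P-values were Benjamini-Hochberg adjusted over 14653 genes. The deposited TPM were summed per gene for levels and for limma 3.58.1 fits on log2(TPM + 1) and log2(TPM + 0.1). Other alternatives were DESeq2 1.42.0, no filter on low counts, the replicate block, only the groups compared and each library left out. The alternative named length-scaled counts was edgeR on summed TPM rescaled to each library's total of gene counts, so it too rests on TPM. Chosen after seeing the data were the block and no filter together. The edgeR fit was also run on simulated counts with known changes, placed only in genes above a minimum level and without a difference by letter. That run does not speak for DLL1, MFNG or HEY1, nor for differences by letter.

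The letters A and B were taken as pairing the libraries only in the fits with the block, and the main fit left the pairing out. A minus B differences correlated between groups in all 6 pairs of groups (r from 0.136 to 0.335 over 14653 genes). In labelled ERF KD against WT edgeR called 18.2% of all genes with the block and 10.1% without it. Replicates of a group differed by more than counting noise (chi-square over its degrees of freedom, 21.5 to 43.1). The sources do not say that they came from separate cultures, so p-values measure only the spread between these libraries. The depth was 19477473 to 25813157 counts per library. The limit for a gene that could be absent was 3 counts, or 0.169 CPM at the smallest TMM-scaled library of 17734737 counts.

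The members, the pathway and marker lists and the tests were chosen with earlier results of these data known. Named were every member, any gene of the pathway list that was called, the most abundant of each role, and the 3 genes closest in pattern to HEY1 and JAG1 among protein-coding genes with a mean of at least 1 CPM.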

Additional observations from a re-analysis of the deposited data

Results flagged for a closer look

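DTX4 differed between the groups in its response. The interaction term of both losses, which compares its difference in the codeletion with the sum of its differences in the single losses, was 2.79 on the log2 scale (SE 0.375, edgeR adjusted p = 0.00613). For this term 1 of the 34 tested genes of the pathway list was called (2.94%), beside 4.15% of all genes. With the block 3 were (8.82%), beside 9.55% of all genes. The term held in 14 of 15 alternatives, and limma on log2(TPM + 1) gave an adjusted p of 0.0532. Its levels were 45.5 and 37.4 CPM in WT, 8.21 and 5.07 in labelled ERF KD, 36.8 and 25.3 in labelled CIC KO, and 36.9 and 32.1 in the codeletion.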

How the results depend on the processing

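Shares in parentheses are those of all genes tested that were called under the same setting. The members called in labelled ERF KD against WT numbered 2 (10.1%). They were 3 with DESeq2 (14%), without a filter on low counts (11.6%) and with the block and no filter together (13.2%), and 1 on length-scaled counts (4.97%) and in the limma fits (7.04% and 7.47%). In the codeletion against WT the count went from 0 to 1 with DESeq2 (3.03%) and to 2 without the filter (3.46%) and with the block and no filter (3.6%). In the codeletion against labelled ERF KD it went from 1 to 2 with DESeq2 (15.8%) and to 3 without the filter (12.6%), with the replicate block (20.6%) and with both together (14.4%). In the codeletion against labelled CIC KO it went from 0 to 1 without the filter (1.92%) and with the block and no filter (1.45%). In labelled ERF KD against labelled CIC KO it went from 1 to 2 without the filter (10.7%) and to 0 on length-scaled counts (4.77%), in the limma fits (6.82% in both) and with only the groups compared (5.87%). The interaction went from 0 to 2 with DESeq2 (7.59%) and without the filter (7.41%), 1 with the replicate block (9.55%) and 2 with the block and no filter (7.86%). With single libraries left out the count ran from 0 to 2 in labelled ERF KD against WT (4.1% to 9.77%), in the codeletion against labelled ERF KD (4.62% to 10.8%), in labelled ERF KD against labelled CIC KO (4.82% to 7.93%) and for the interaction (1.8% to 3.66%), and it stayed at 0 in the other 3 comparisons. The cause of these changes was not tested.

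Log2 differences of labelled ERF KD from WT changed sign only for NOTCH2 (from -0.17 to 0.035 with single libraries left out) and JAG1 (from -1.39 to 0.18) among the values named. Over all members and comparisons, 35 of 560 values changed sign with a library left out, none with a main difference above 0.53, and 19 of 540 did under the other alternatives, none above 0.21. The block changed no member's call beyond those given. With 2 libraries a group, leaving 1 out assumes that the lone library varies like the others. DLL1 and HEY1 rest on 28 counts or fewer per library, which limits what can be said of them.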
